A study of Homo sapiens with 12 samples.

Results

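The 44 mitotic cell cycle genes described here drive and carry out the G2 and M phases of the division cycle. They were chosen by name, as a list of established G2 and mitosis genes, by a rule that uses no value of these samples, though with earlier results of these data known, and each was found by its symbol among the 63677 rows of the count table. All 44 had enough reads to be tested, among 17092 genes with at least 10 counts in 3 or more samples. CKS1B was present in 2 rows, and the row on chromosome 5, annotated as a pseudogene, held between 1 and 10 counts per sample and was kept apart.

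The cells were Huh7, a human hepatocellular carcinoma line, grown on plates for a day before treatment. Of the 12 samples, 3 were untreated, 3 received graphene oxide (GO, a carbon nanosheet used as a drug carrier) at 400 µg/mL, 3 received GO carrying the ginsenoside Rg3 (GO–Rg3) at 400 µg/mL, and 3 received GO–Rg3 loaded with doxorubicin (GO–Rg3–DOX) at 100 µg/mL, each for 6 h. GO–Rg3–DOX thus differed from the other carriers in dose as well as in the drug, and cells given doxorubicin without a carrier are not analysed here. Nothing in the labels says whether the samples of a group came from separate cultures, so p-values measure only the spread between these samples, which may be technical.

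Entry into mitosis is set by CDK1 bound to a B-type or A-type cyclin, which WEE1 holds inactive and the CDC25 phosphatases release. The spindle checkpoint then keeps the anaphase-promoting complex from acting until every chromosome is attached, after which CDC20 and UBE2C direct the removal of cyclin B and securin, separase cuts cohesin, and the midzone machinery divides the cell. Most of these genes are transcribed late in the cycle from promoters that carry a CHR element, to which the DREAM and MMB-FOXM1 complexes bind, and CCAAT boxes, to which NF-Y binds. Doxorubicin intercalates into DNA and traps topoisomerase II, the enzyme that TOP2A encodes.

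The promoters of 5 genes with responses described below are shown to place these elements, 4 of genes whose RNA was lower after GO–Rg3–DOX and that of ESPL1, whose RNA was higher. Each line gives the 250 bases before the RefSeq start of the gene, 5′ to 3′ on the strand of the gene, from the GRCh38.p14 build. Capitals mark the CHR letters TTTGAA or TTTAAA and the CCAAT box letters CCAAT, found on either strand, so that TTCAAA and ATTGG are the same motifs on the opposite strand. All 5 genes lie on the plus strand, at chr9:89310945-89311194 for CKS2, chr5:69166900-69167149 for CCNB1, chr10:92592880-92593129 for KIF11, chr1:37692266-37692515 for CDCA8 and chr12:53268049-53268298 for ESPL1.
CKS2: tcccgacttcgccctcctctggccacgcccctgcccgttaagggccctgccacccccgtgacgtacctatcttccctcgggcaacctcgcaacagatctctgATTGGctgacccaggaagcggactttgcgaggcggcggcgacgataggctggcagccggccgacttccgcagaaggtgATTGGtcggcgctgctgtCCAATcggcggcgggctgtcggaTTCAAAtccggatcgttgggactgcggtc
CCNB1: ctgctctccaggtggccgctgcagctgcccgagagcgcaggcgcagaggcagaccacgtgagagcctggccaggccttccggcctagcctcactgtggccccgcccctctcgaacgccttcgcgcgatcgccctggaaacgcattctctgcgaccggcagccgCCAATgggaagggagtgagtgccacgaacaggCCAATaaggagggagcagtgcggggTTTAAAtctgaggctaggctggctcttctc
KIF11: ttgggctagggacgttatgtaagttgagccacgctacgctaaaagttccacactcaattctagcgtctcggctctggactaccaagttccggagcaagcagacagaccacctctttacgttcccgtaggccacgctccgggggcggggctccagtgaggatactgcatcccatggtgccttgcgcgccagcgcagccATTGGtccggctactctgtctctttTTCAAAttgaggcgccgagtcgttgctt
CDCA8: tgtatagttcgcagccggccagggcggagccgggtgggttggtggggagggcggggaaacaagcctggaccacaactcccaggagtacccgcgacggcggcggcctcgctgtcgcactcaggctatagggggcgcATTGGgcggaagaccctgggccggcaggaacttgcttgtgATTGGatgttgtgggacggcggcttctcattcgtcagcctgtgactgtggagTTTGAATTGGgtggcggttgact
ESPL1: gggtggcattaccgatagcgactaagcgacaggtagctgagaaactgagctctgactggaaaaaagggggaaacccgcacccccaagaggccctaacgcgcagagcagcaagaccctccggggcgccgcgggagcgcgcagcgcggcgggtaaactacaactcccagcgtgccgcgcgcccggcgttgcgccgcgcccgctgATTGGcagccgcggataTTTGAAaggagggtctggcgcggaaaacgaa

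Each of the 5 held a CHR match between 23 and 31 bases before the start, and at least 1 CCAAT box further upstream. In CDCA8 the CHR match runs into a CCAAT box on the other strand. The arrangement in KIF11, whose RNA fell, and in ESPL1, whose RNA rose, was alike: the CHR match began at −28 and −31, and the single CCAAT box at −53 and −48. RefSeq windows of 300 bases, from 250 before to 50 after the start, were at hand for 36 of the 44 genes, 30 of them with a single window. WEE1, AURKA, BUB3, TTK, BIRC5, TPX2, UBE2C and FOXM1 had no entry. A CHR match was present in 26 of the 30 windows (86.7%) and a CCAAT box in 25 (83.3%), beside 24.9% and 36.2% of the 22114 gene symbols with a single window. Both motifs occurred in 21 of the 30 (70.0%), beside 9.84% of the 22114 windows, and 17 (56.7%) held at least 2 CCAAT boxes, beside 11.4%. The median position was −30 for 40 CHR matches and −74 for 58 CCAAT boxes. A match of letters is a description of the window and no evidence of binding.

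**Figure D1:**
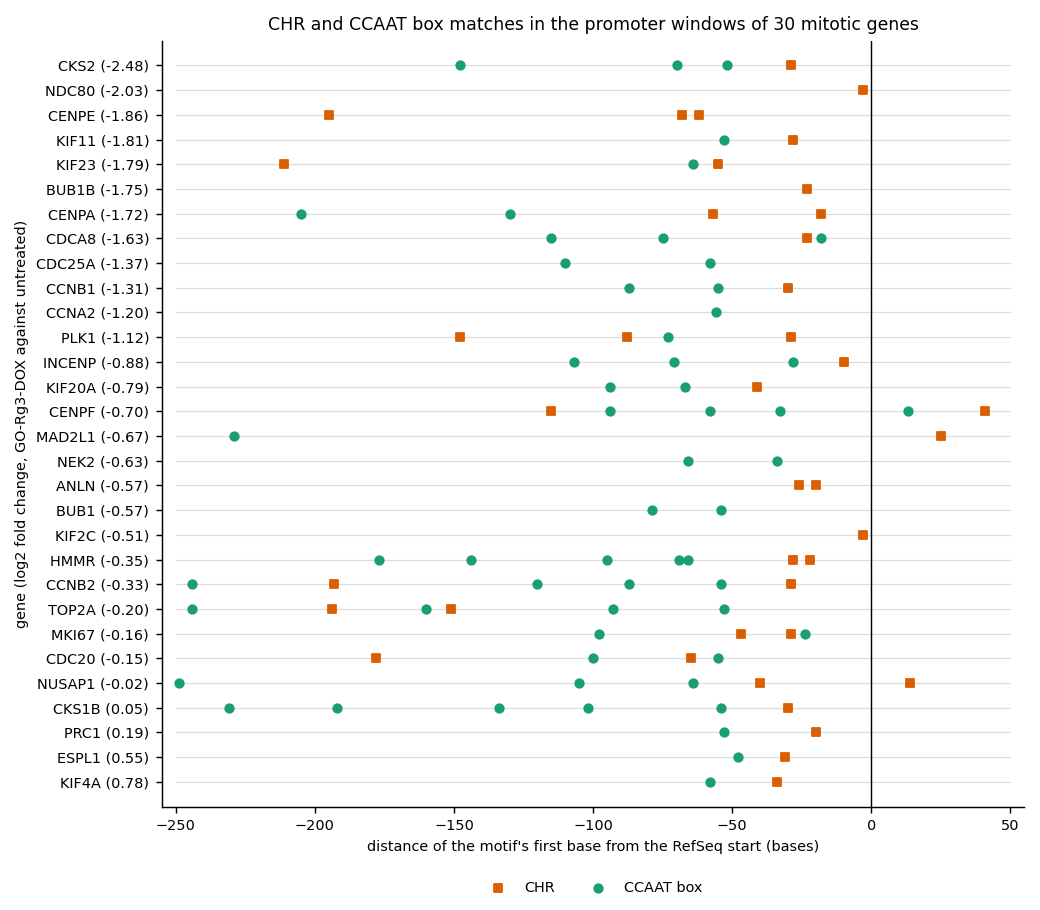
Positions of CHR matches (squares) and CCAAT boxes (circles) in the RefSeq promoter windows of 30 mitotic genes, as the distance in bases of the motif's first base from the start, with genes ordered by their log2 fold change after GO–Rg3–DOX, given in brackets. CHR matches lie around the median of −30 in genes from CKS2 at −2.48 to KIF4A at 0.78.

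Genes with and without a CHR match were found among those that were lower after GO–Rg3–DOX, by the test described below. Of the 26 genes with a CHR match, 17 passed the test as lower and 2 as higher after GO–Rg3–DOX. Of all tested genes, 30.5% were lower and 25.5% higher. The median log2 fold change of the 26 was −0.68. Fold changes of genes outside the list that carry a CHR match were not examined. All 4 genes without a match (CCNA2, CDC25A, NEK2 and BUB1) were lower, with a median of −0.91. Only the letters TTTGAA and TTTAAA were searched. A gene without a match may therefore still carry another form of the element, and the 2 sets are no contrast of genes with and without it.

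Levels are given as CPM, read counts scaled with TMM factors to library totals of the same size, and log2 fold changes as treated minus untreated, with the standard error of edgeR's quasi-likelihood fit to all 12 samples. A gene passed the test at a Benjamini-Hochberg adjusted p below 0.01 over all tested genes, and the words rose and fell are kept for these. It was called where the log2 fold change was also above 1 in size. Library totals lay between 27802871 and 38877420 counts, and no library held fewer than 88 counts of any of the 44 genes. Reads encoded by the mitochondrial genome made up 5.31% to 6.28% of the untreated libraries and 6.89% to 7.42% after GO–Rg3, but 12.1% to 24.1% after GO and 12.8% to 19.4% after GO–Rg3–DOX, with the highest shares in GO replicate 1 and GO–Rg3–DOX replicate 1. The hepatocyte identity of the line was visible in all 8 marker genes, among them ALB and AFP, whose summed level was 23138 to 23270 CPM in untreated cells, 14466 to 17532 with GO, 17877 to 21435 with GO–Rg3 and 30215 to 35485 with GO–Rg3–DOX. The 6 fibroblast markers summed to 4.88 to 6.14 CPM in untreated cells, 4.82 to 6.47 with GO and 4.95 to 6.70 with GO–Rg3. With GO–Rg3–DOX they summed to 13.2 to 16.6 CPM. Over all libraries PDGFRB ranged from 1.70 to 8.57 CPM, COL1A2 from 1.63 to 4.82 and COL3A1 from 0.59 to 2.59. COL1A1 reached 0.79 CPM, LUM 0.40 and DCN 0.079. The 7 blood and endothelial markers summed to 0.45 to 0.67 CPM in untreated cells, 0.29 to 0.59 with GO and 0.36 to 0.51 with GO–Rg3. Their sum with GO–Rg3–DOX was 0.79 to 1.07 CPM. HBB and PECAM1 were at 0 in every library. The part of the mitochondrial share and of these markers in the results below was not tested.

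In untreated cells the mitotic genes were well expressed. Per kilobase of transcript, CDC20 had the highest level at 217 ± 5.10 CPM (SD, n = 3), followed by CKS1B at 197 ± 2.33 and CKS2 at 189 ± 11.3, which differed by less than the SD of CKS2. CENPE, a gene with a transcript of 8541 bases, had the lowest level at 5.97 ± 0.25.

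Most of the mitotic programme was lower after GO–Rg3–DOX. Of the 44 genes, 28 fell (63.6%), beside 30.5% of all tested genes, and 5 rose (11.4%), beside 25.5%. The call at a more than 2-fold change was met by 15 members (34.1%), beside 30.8% of all genes, a share near the background, and all 15 were lower. They were TTK, CKS2, WEE1, NDC80, CENPE, KIF11, KIF23, BUB1B, CENPA, CDCA8, AURKA, CDC25A, CCNB1, CCNA2 and PLK1. Those that rose were CDC25B, FOXM1, KIF4A, BIRC5 and ESPL1. The remaining 11 genes, TPX2, CDC20, UBE2C, PTTG1, TOP2A, MKI67, AURKB, NUSAP1, PRC1, CKS1B and HMMR, had log2 fold changes between −0.35 and 0.26 and did not pass. The median log2 fold change was −0.60 over the members and −0.06 over all tested genes. Fewer cells in G2 and M phase and less RNA of these genes per cell cannot be told apart in such bulk samples. With library totals alone in place of TMM the median of all genes moved to −0.47 and that of the members to −1.01, and 34 members were lower (77.3%, beside 42.7% of all genes) and 2 higher (4.55%, beside 12.6%), with AURKB, TPX2, NUSAP1, HMMR, CDC20 and MKI67 among the lower ones. With an offset for GC content, 21 were lower (47.7%, beside 28.1%) and 9 higher (20.5%, beside 30.8%), and the median of the members was −0.22. Under that offset CDK1, NEK2, MAD2L1, BUB1, CENPF, ECT2, ANLN, CCNB2 and CDC25C no longer passed, while NUSAP1, HMMR, PTTG1 and PRC1 passed as higher and CDC20 and AURKB as lower.

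Fewer of these genes passed the test after GO. Of the 44 genes, 10 fell (22.7%), beside 15.4% of all tested genes, and 3 rose (6.82%), beside 12.1%. The genes that fell were MAD2L1, CKS2, HMMR, CDK1, ECT2, CKS1B, CCNB1, BUB3, CDC25A and NDC80, and those that rose were CDC25B, MKI67 and ESPL1. A more than 2-fold change was called for MAD2L1 and CKS2 (4.55%), beside 6.47% of all genes, and without GO replicate 3 for 1 of them, with CKS2 at −0.98. The median log2 fold change was −0.23 for the members and 0.01 for all genes. Without GO replicate 2, 16 members were lower (36.4%, beside 14.2% of all genes). With the GC offset 8 were lower (18.2%, beside 16.5% of all genes) and 6 higher (13.6%, beside 13.6%), shares near the background, none changed more than 2-fold, and the median of the members was −0.08. WEE1, CENPF and KIF11 then passed as higher and CDC20 as lower, and BUB3, ECT2 and NDC80 no longer passed.

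After GO–Rg3, none of the 44 genes passed in the main fit. In that fit 0.0585% of all genes were higher, 0.105% lower and 0.0585% called. An unadjusted p below 0.05 was found for 9 members, and the share over all genes was not counted. DESeq2's Wald test passed 1 member, CKS2, as lower, beside 1.34% of all genes. Without GO replicate 1 and GO–Rg3–DOX replicate 1, the libraries of highest mitochondrial share, CKS2, CKS1B and PTTG1 passed as lower. These were 6.82% of the members, beside 2.93% of all genes. In the main fit the median was −0.11 for the members and −0.0011 for all genes. GO–Rg3 was also set against GO at the same dose. The paper made GO–Rg3 with heated sulfuric acid and reports larger, thicker flakes of less negative surface charge than GO. Effects of these changes and of the conjugated Rg3 cannot be told apart in this comparison. Here 4 members were higher after GO–Rg3 (9.09%), namely MAD2L1, ECT2, CDC25A and CCNB1, beside 7.33% of all genes. CDC25B and ESPL1 were lower (4.55%), beside 6.25%, and edgeR called none, beside 2.77%. An unadjusted p below 0.05 was found for 20 members, again without a share over all genes. This comparison shares the GO samples with that of GO against untreated cells, so the 2 sets of differences are not independent of each other. In a fit to the 6 samples compared alone, none of the 44 passed in either direction, beside 0.954% of all genes higher and 1.87% lower.

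**Figure D2:**
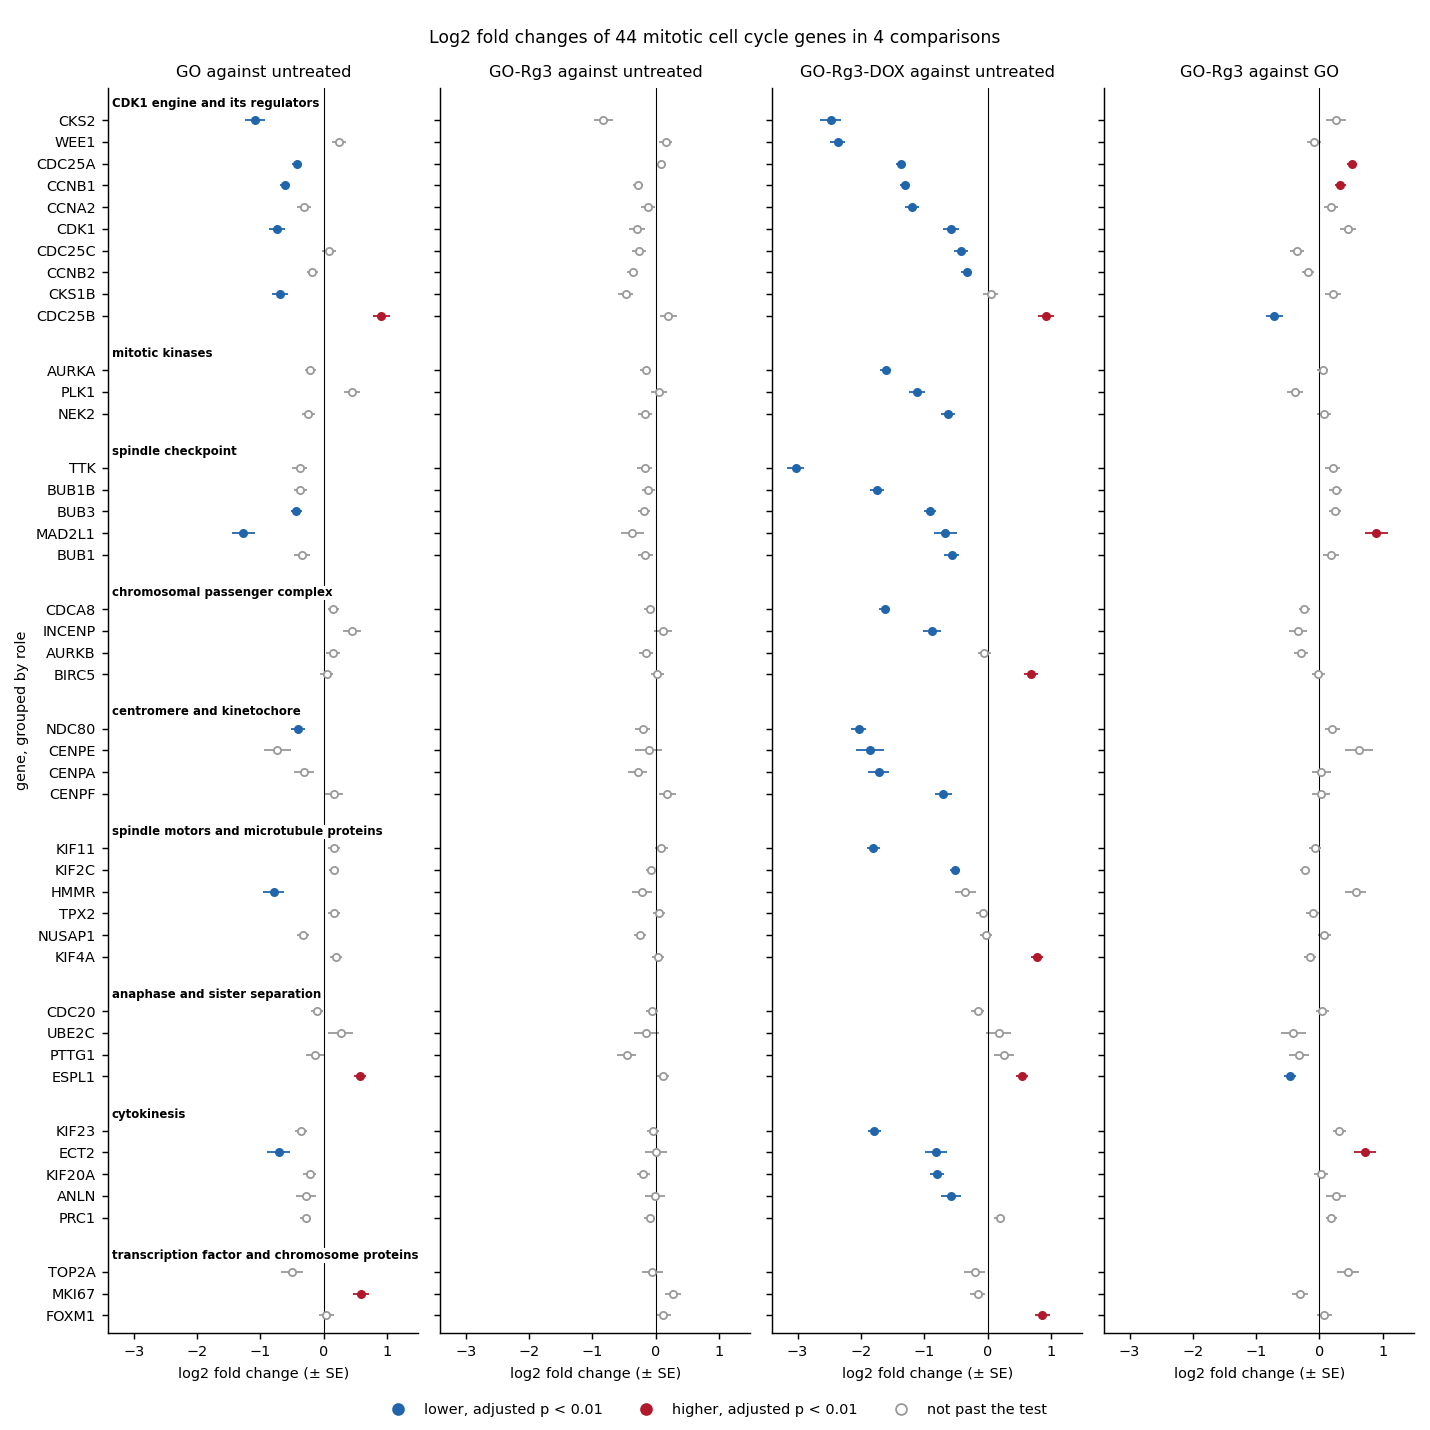
Log2 fold change with its standard error for each of the 44 genes, grouped by role, in 4 comparisons. Blue points were lower and red points higher at an adjusted p below 0.01, and open points did not pass. After GO–Rg3–DOX the blue points reach −3.03 for TTK, while after GO–Rg3 every point is open.

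**Figure D3:**
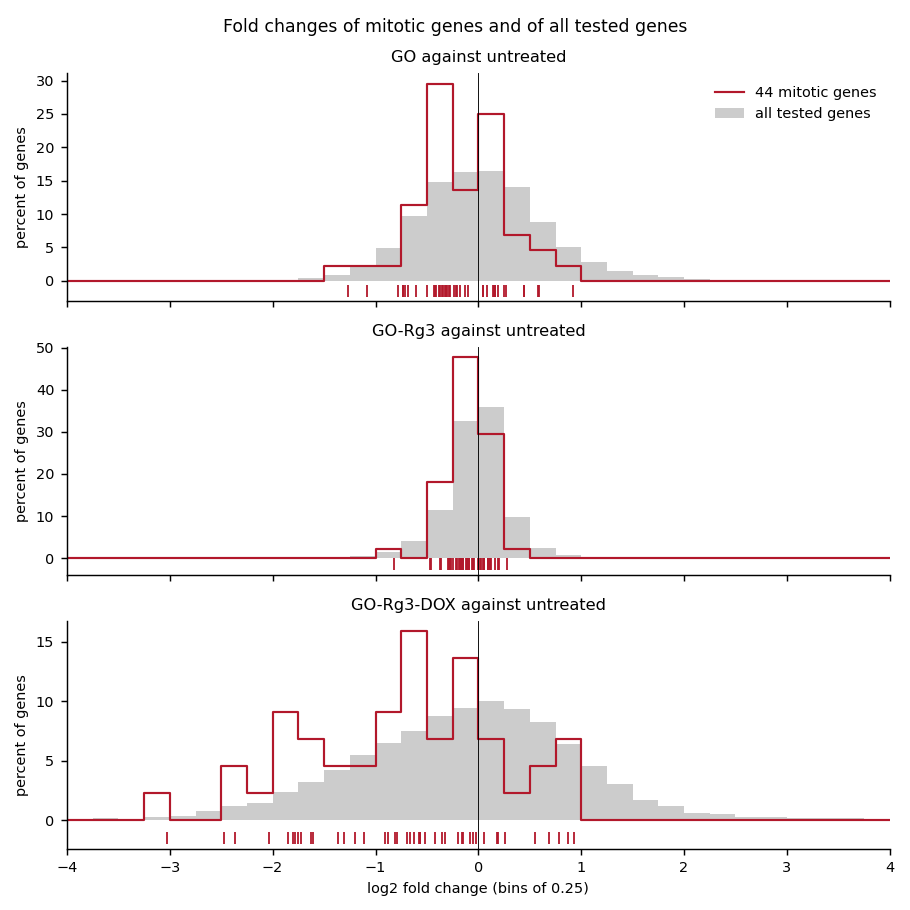
Distribution of log2 fold changes in bins of 0.25, as the percent of all 17092 tested genes (grey bars) and of the 44 mitotic genes (red line, with a tick for each gene), for each treatment against untreated cells. The medians of the mitotic genes, from the top panel down, were −0.23, −0.11 and −0.60.

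The median deviation of the 44 genes from the untreated mean, on the log2 scale, was −0.70, −0.61 and −0.54 in the 3 GO–Rg3–DOX libraries, −0.28, −0.14 and −0.24 in the GO libraries and −0.19, −0.04 and −0.13 in the GO–Rg3 libraries. The untreated libraries lay between −0.02 and 0.01.

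In the CDK1 engine 8 of 10 genes fell and CDC25B rose after GO–Rg3–DOX. WEE1 (ENSG00000166483, chr11:9595217-9615004 in GRCh37) encodes the kinase that keeps CDK1 phosphorylated and inactive. WEE1 measured 54.3, 62.8 and 59.6 CPM in the untreated libraries, 64.9, 71.4 and 73.5 CPM with GO, 60.96, 72.1 and 64.1 CPM with GO–Rg3 and 11.1, 10.2 and 13.002 CPM with GO–Rg3–DOX. Every GO–Rg3–DOX library lay far below all others, with a log2 fold change of −2.37 ± 0.12 (SE) (adjusted p = 3.8e-10), or 5.16-fold lower, and the log2 fold changes were 0.25 after GO and 0.16 after GO–Rg3, neither past the test. CKS2 (ENSG00000123975, chr9:91926110-91931618 in GRCh37) encodes a small subunit that docks CDK1 to phosphorylated substrates. CKS2 measured 123.9, 110.4 and 114.5 CPM in the untreated libraries, 70.4, 47.3 and 46.8 CPM with GO, 54.1, 73.8 and 68.97 CPM with GO–Rg3 and 18.2, 21.9 and 22.5 CPM with GO–Rg3–DOX. The untreated libraries were the highest and did not overlap with any treated group, and those of GO–Rg3–DOX were the lowest. CKS2 fell after GO with a log2 fold change of −1.09 ± 0.16 (SE) (adjusted p = 9.3e-05) and after GO–Rg3–DOX with one of −2.48 ± 0.16 (SE) (adjusted p = 6.4e-09). After GO–Rg3 its log2 fold change was −0.83 ± 0.15 (SE), the largest in size among the 44 genes in that comparison, with an adjusted p of 0.02. CKS1B, its close relative, gave −0.69 ± 0.12 (log2 fold change ± SE) after GO (adjusted p = 5e-04) but 0.05 after GO–Rg3–DOX (adjusted p = 0.73).

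CCNB1 (ENSG00000134057, chr5:68462962-68474072 in GRCh37) encodes cyclin B1, the main partner of CDK1 at mitotic entry. CCNB1 measured 235.1, 238.8 and 228.9 CPM in the untreated libraries, 158.5, 159.1 and 144.6 CPM with GO, 185.5, 199.8 and 195.5 CPM with GO–Rg3 and 95.5, 97.1 and 91.7 CPM with GO–Rg3–DOX. The 4 groups did not overlap, in the order untreated, GO–Rg3, GO and GO–Rg3–DOX from high to low. CCNB1 fell after GO with a log2 fold change of −0.60 ± 0.08 (SE) (adjusted p = 6.2e-05) and after GO–Rg3–DOX at −1.31 ± 0.08 (SE) (adjusted p = 4.3e-09), and the difference of GO–Rg3 from untreated cells, −0.28 ± 0.08 (SE), did not pass (adjusted p = 0.11). It was higher after GO–Rg3 than after GO at 0.33 ± 0.08 (log2 fold change ± SE) (adjusted p = 0.0085), which did not pass with the GC offset, at 0.18, or without GO replicate 2 or 3 or GO–Rg3 replicate 2 or 3, at 0.29 to 0.35. CCNA2 (ENSG00000145386, chr4:122737599-122745038 in GRCh37), the A-type cyclin of S and G2 phase, was also lower after GO–Rg3–DOX. CCNA2 measured 68.5, 69.8 and 65.7 CPM in the untreated libraries, 46.5, 61.4 and 57.1 CPM with GO, 58.1, 65.9 and 63.3 CPM with GO–Rg3 and 27.2, 31.2 and 30.5 CPM with GO–Rg3–DOX. Its GO–Rg3–DOX libraries were below all others, and it fell with a log2 fold change of −1.20 ± 0.11 (SE) (adjusted p = 2e-07). Of its exonic bases 9.24% are shared with EXOSC9 on the opposite strand, and whether the counting used strand is not known. CCNB2, cyclin B2, gave −0.33 ± 0.09 (log2 fold change ± SE) after GO–Rg3–DOX (adjusted p = 0.0045), and without any 1 of the 3 untreated libraries or of GO–Rg3–DOX replicates 2 and 3 it no longer passed, at −0.35 to −0.30. With the GC offset it was at −0.07 (adjusted p = 0.42).

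CDC25A (ENSG00000164045, chr3:48198636-48229907 in GRCh37) encodes a phosphatase that activates CDKs from S phase onward. CDC25A measured 122.9, 116.1 and 116.1 CPM in the untreated libraries, 91.6, 85.5 and 87.7 CPM with GO, 126.9, 127.2 and 123.6 CPM with GO–Rg3 and 45.5, 45.6 and 46.4 CPM with GO–Rg3–DOX. Its libraries after GO were below the untreated ones, those after GO–Rg3 were slightly above, and those after GO–Rg3–DOX were the lowest. It fell after GO with a log2 fold change of −0.42 ± 0.08 (SE) (adjusted p = 0.00067) and after GO–Rg3–DOX at −1.37 ± 0.08 (SE) (adjusted p = 1.9e-09), and was higher after GO–Rg3 than after GO at 0.51 ± 0.08 (SE) (adjusted p = 4e-04). The related phosphatase CDC25B went the other way, from 123 ± 2.10 CPM (SD, n = 3) in untreated cells to 232 ± 34.6 with GO, 142 ± 22.9 with GO–Rg3 and 234 ± 25.8 with GO–Rg3–DOX. It rose with a log2 fold change of 0.92 ± 0.13 (SE) after GO (adjusted p = 8.9e-05) and one of 0.93 ± 0.13 (SE) after GO–Rg3–DOX (adjusted p = 1.5e-05), and was lower after GO–Rg3 than after GO at −0.71 ± 0.13 (SE) (adjusted p = 0.0013). CDC25C, another of these phosphatases, had a low level of 15.8 ± 0.42 CPM in untreated cells and gave −0.42 ± 0.11 (log2 fold change ± SE) after GO–Rg3–DOX (adjusted p = 0.0042). It did not pass without any 1 of the untreated libraries or without GO–Rg3–DOX replicate 3, at −0.44 to −0.37, or with the GC offset, at −0.21 (adjusted p = 0.04).

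CDK1 itself fell from 143 ± 5.56 CPM in untreated cells to 85.9 ± 10.9 after GO, a log2 fold change of −0.74 ± 0.13 (SE) (adjusted p = 0.00038). After GO–Rg3 the level was 116.99 ± 17.03 CPM (adjusted p = 0.32). With GO–Rg3–DOX it was 96.3 ± 12.3 CPM with −0.57 ± 0.13 (log2 fold change ± SE) (adjusted p = 0.00096), but its transcript, at 35.4% GC, is among the most GC-poor of the list, and with the GC offset the sign turned to 0.13 and the difference did not pass.

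**Figure D4:**
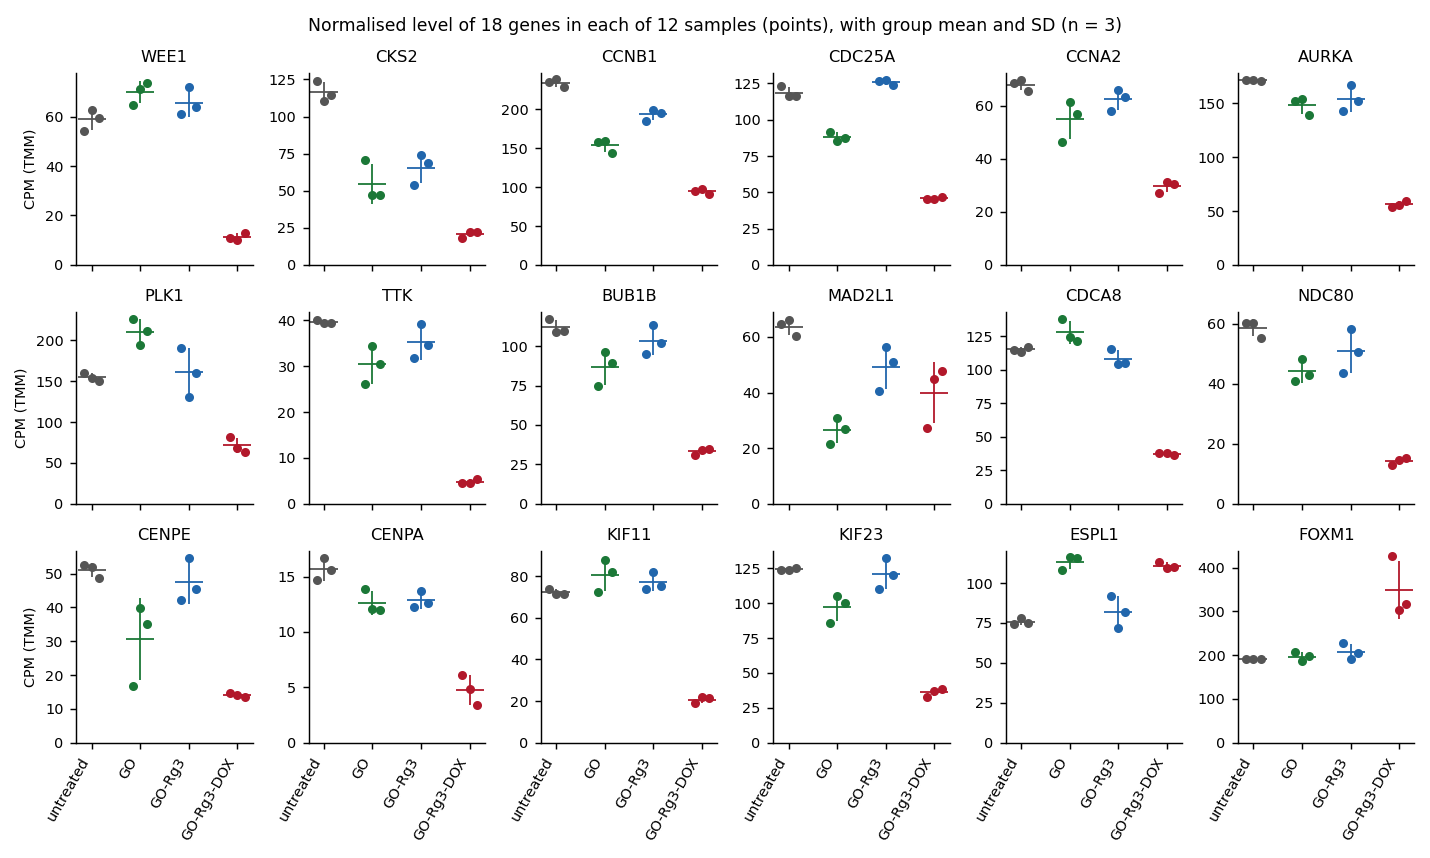
Normalised level (CPM) of 18 mitotic genes in each of the 12 samples, with the mean (line) and SD of each group of 3. In 16 of the 18 panels the GO–Rg3–DOX points lie below the untreated ones, and in those of ESPL1 and FOXM1 above.

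The 3 genes grouped here as mitotic kinases, AURKA, PLK1 and NEK2, were lower after GO–Rg3–DOX. In the main fit none of them passed after GO or GO–Rg3. Other kinases of the list, CDK1, WEE1, TTK, BUB1 and AURKB, are given under other roles. AURKA (ENSG00000087586, chr20:54944445-54967393 in GRCh37) encodes the kinase that matures centrosomes and builds the spindle. AURKA measured 171.8, 171.4 and 170.5 CPM in the untreated libraries, 151.7, 154.1 and 138.97 CPM with GO, 142.97, 166.9 and 151.6 CPM with GO–Rg3 and 53.5, 56.03 and 59.02 CPM with GO–Rg3–DOX. The GO–Rg3–DOX libraries were far below the rest, and AURKA fell with a log2 fold change of −1.61 ± 0.09 (SE) (adjusted p = 1.2e-09), 3.05-fold. PLK1 (ENSG00000166851, chr16:23688977-23701688 in GRCh37), the polo-like kinase of mitotic entry, centrosomes and cytokinesis, showed another pattern. PLK1 measured 160.6, 153.4 and 150.4 CPM in the untreated libraries, 226.3, 194.8 and 210.9 CPM with GO, 191.3, 131.2 and 160.1 CPM with GO–Rg3 and 81.8, 68.9 and 63.5 CPM with GO–Rg3–DOX. Its GO libraries were above the untreated ones and its GO–Rg3–DOX libraries below them, without overlap. It fell with a log2 fold change of −1.12 ± 0.13 (SE) after GO–Rg3–DOX (adjusted p = 2.2e-06). The difference after GO of 0.44 ± 0.13 (SE) had an adjusted p of 0.012 in the main fit and passed with DESeq2, at 0.46 (adjusted p = 0.0063). It also passed as higher in other edgeR fits, among them those with the gene length offset and to the 6 samples compared. With the GC offset it was at 0.22 (adjusted p = 0.056). For PLK1, 12.8% of exonic bases are shared with other genes, ERN2 among them. NEK2, a centrosomal kinase, gave −0.63 ± 0.11 (log2 fold change ± SE) after GO–Rg3–DOX (adjusted p = 0.00012), which did not pass with the GC offset, at −0.21.

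All 5 genes of the spindle checkpoint fell after GO–Rg3–DOX, with a median log2 fold change of −0.91. TTK (ENSG00000112742, chr6:80713604-80752244 in GRCh37), which encodes the checkpoint kinase MPS1 that recruits the others to kinetochores, had the lowest log2 fold change of the 44 genes. TTK measured 40.03, 39.4 and 39.4 CPM in the untreated libraries, 26.1, 34.5 and 30.6 CPM with GO, 31.7, 39.3 and 34.6 CPM with GO–Rg3 and 4.53, 4.53 and 5.45 CPM with GO–Rg3–DOX. In GO–Rg3–DOX cells it was at 12.2% of the untreated level, with a log2 fold change of −3.03 ± 0.13 (SE) (adjusted p = 1.6e-10), and these libraries still held 110 to 143 counts of it. Its GO libraries were also all below the untreated ones, with −0.38 ± 0.12 (log2 fold change ± SE) and an adjusted p of 0.018. BUB1B (ENSG00000156970, chr15:40453224-40513324 in GRCh37) encodes BUBR1, which binds and inhibits CDC20. BUB1B measured 117.3, 109.3 and 109.5 CPM in the untreated libraries, 74.5, 96.2 and 89.5 CPM with GO, 94.96, 113.4 and 102.1 CPM with GO–Rg3 and 31.2, 34.04 and 34.6 CPM with GO–Rg3–DOX. It fell after GO–Rg3–DOX with a log2 fold change of −1.75 ± 0.11 (SE) (adjusted p = 3.6e-09), with all 3 libraries far below the rest, and 10.2% of its exonic bases are shared with PAK6 and a BUB1B-PAK6 read-through gene. MAD2L1 (ENSG00000164109, chr4:120976778-120988013 in GRCh37) encodes MAD2, the other direct inhibitor of CDC20. MAD2L1 measured 64.5, 66.1 and 60.2 CPM in the untreated libraries, 21.6, 30.8 and 26.8 CPM with GO, 40.7, 56.3 and 50.9 CPM with GO–Rg3 and 27.3, 44.96 and 47.7 CPM with GO–Rg3–DOX. Here the GO libraries were the lowest, GO–Rg3–DOX replicate 1 lay within the GO range, and the GO–Rg3 libraries were between GO and untreated ones. MAD2L1 fell after GO with a log2 fold change of −1.27 ± 0.19 (SE) (adjusted p = 0.00011), the largest fall of the list in that comparison, and was higher after GO–Rg3 than after GO at 0.90 ± 0.18 (SE) (adjusted p = 0.0028). That last difference did not pass without GO replicate 1 or 3 or GO–Rg3 replicate 2 or 3, at 0.78 to 0.90. Under GO–Rg3–DOX its −0.67 ± 0.18 (log2 fold change ± SE) (adjusted p = 0.0046) did not pass without untreated replicate 1 or 2 or GO–Rg3–DOX replicate 1, at −0.66 to −0.46, or with the GC offset, at −0.10 (adjusted p = 0.47).

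BUB3, the adaptor that brings BUB1 and BUBR1 to kinetochores, fell after GO with a log2 fold change of −0.43 ± 0.09 (SE) (adjusted p = 0.0018) and after GO–Rg3–DOX at −0.91 ± 0.09 (SE) (adjusted p = 5.5e-07). The GO difference did not pass with the GC offset, at −0.18, or without untreated replicate 1, at −0.40. BUB1, the kinase that marks the centromere, gave −0.57 ± 0.12 (log2 fold change ± SE) after GO–Rg3–DOX (adjusted p = 0.00082), which did not pass with the GC offset, at −0.16.

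The chromosomal passenger complex, which corrects faulty attachments and later guides cytokinesis, had 2 genes that fell and 1 that rose after GO–Rg3–DOX. CDCA8 (ENSG00000134690, chr1:38158153-38175391 in GRCh37) encodes borealin, which anchors the complex to the centromere. CDCA8 measured 114.8, 113.4 and 116.9 CPM in the untreated libraries, 137.8, 124.3 and 121.4 CPM with GO, 115.3, 104.2 and 104.7 CPM with GO–Rg3 and 37.99, 37.8 and 36.03 CPM with GO–Rg3–DOX. Its GO–Rg3–DOX libraries were the lowest and its GO libraries the highest, and it fell after GO–Rg3–DOX with a log2 fold change of −1.63 ± 0.09 (SE) (adjusted p = 9.7e-10). INCENP, the scaffold, gave −0.88 ± 0.15 (log2 fold change ± SE) (adjusted p = 7.8e-05). AURKB, the kinase of the complex, measured 131 ± 3.06 CPM in untreated and 126.3 ± 3.28 CPM in GO–Rg3–DOX cells, with an adjusted p of 0.71, and passed as lower with the GC offset, at −0.24, and with library totals alone, at −0.47. BIRC5, which encodes survivin, rose from 60.4 ± 1.97 CPM to 96.9 ± 1.11 CPM. Its log2 fold change of 0.68 ± 0.11 (SE) (adjusted p = 4.7e-05) came to 0.27 and did not pass with library totals alone. After GO, none of the 4 passed.

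All 4 centromere and kinetochore genes fell after GO–Rg3–DOX, with the lowest median of any role, −1.79. NDC80 (ENSG00000080986, chr18:2571556-2616634 in GRCh37) encodes the outer kinetochore protein that holds microtubules. NDC80 measured 60.1, 60.4 and 55.3 CPM in the untreated libraries, 40.9, 48.3 and 43.1 CPM with GO, 43.6, 58.1 and 50.7 CPM with GO–Rg3 and 13.1, 14.7 and 15.1 CPM with GO–Rg3–DOX. Every GO–Rg3–DOX library was below all others, and the log2 fold change was −2.03 ± 0.12 (SE) (adjusted p = 2e-09). The GO libraries were below the untreated ones with −0.41 ± 0.11 (log2 fold change ± SE) (adjusted p = 0.0095), which did not pass with RLE scaling, at −0.39, with library totals alone, at −0.52, or when untreated replicate 1, 2 or 3 or GO replicate 1 or 3 was left out, at −0.45 to −0.36. With the GC offset NDC80 was at −0.12 after GO (adjusted p = 0.17). CENPE (ENSG00000138778, chr4:104026506-104119602 in GRCh37) encodes the kinesin that brings chromosomes to the spindle equator. CENPE measured 52.6, 51.9 and 48.6 CPM in the untreated libraries, 16.8, 39.9 and 35.1 CPM with GO, 42.1, 54.6 and 45.4 CPM with GO–Rg3 and 14.7, 14.2 and 13.5 CPM with GO–Rg3–DOX. GO replicate 1 was close to the GO–Rg3–DOX libraries while the other GO libraries were nearer to untreated cells. The log2 fold change of CENPE after GO, which had the largest SE of the 44 genes there, was −0.73 ± 0.21 (SE) (adjusted p = 0.013). It passed as lower with DESeq2, without a filter on low counts, with the replicate block, and without GO replicate 1 or 2. With the GC offset it did not pass, at −0.36 (adjusted p = 0.06). After GO–Rg3–DOX it fell with a log2 fold change of −1.86 ± 0.22 (SE) (adjusted p = 3.3e-06). CENPA (ENSG00000115163, chr2:26987157-27023935 in GRCh37) encodes the histone H3 variant that marks the centromere. CENPA measured 14.7, 16.7 and 15.6 CPM in the untreated libraries, 13.9, 12.1 and 11.97 CPM with GO, 12.3, 13.7 and 12.6 CPM with GO–Rg3 and 6.10, 4.82 and 3.36 CPM with GO–Rg3–DOX. It fell after GO–Rg3–DOX with a log2 fold change of −1.72 ± 0.16 (SE) (adjusted p = 2.8e-07), from 521 to 664 counts in untreated libraries to 88 to 148, and 7.08% of its exonic bases are shared with SLC35F6. CENPF, a large protein of the outer kinetochore, gave −0.70 ± 0.14 (log2 fold change ± SE) (adjusted p = 0.00041), which did not pass with the GC offset, at −0.23.

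Among the spindle motors and microtubule proteins the response to GO–Rg3–DOX differed from gene to gene. KIF11 (ENSG00000138160, chr10:94333862-94415152 in GRCh37) encodes the kinesin Eg5, which pushes the spindle poles apart. KIF11 measured 73.97, 71.3 and 71.3 CPM in the untreated libraries, 72.3, 87.9 and 81.98 CPM with GO, 73.7, 82.1 and 75.4 CPM with GO–Rg3 and 18.9, 21.7 and 21.3 CPM with GO–Rg3–DOX. The untreated, GO and GO–Rg3 libraries ran into each other while those of GO–Rg3–DOX lay far below, and the log2 fold change was −1.81 ± 0.10 (SE) (adjusted p = 1.2e-09). KIF2C, a microtubule depolymerase of the centromere, gave −0.51 ± 0.08 (log2 fold change ± SE) (adjusted p = 4.8e-05). KIF4A, a chromosome-bound kinesin, rose from 74.9 ± 0.71 CPM to 128.9 ± 10.6 CPM. Its log2 fold change of 0.78 ± 0.09 (SE) (adjusted p = 3.1e-06) came to 0.36 and did not pass with library totals alone. TPX2, which activates AURKA on the spindle, measured 484 ± 11.6 and 458 ± 60.8 CPM (adjusted p = 0.51). NUSAP1 and HMMR, which bind and organise spindle microtubules, had adjusted p-values of 0.84 and 0.074 after GO–Rg3–DOX. With the GC offset both passed as higher, at 0.38 and 0.31, and with library totals alone both passed as lower, at −0.44 and −0.76, while 15.2% of the exonic bases of NUSAP1 are shared with OIP5 and OIP5-AS1. HMMR fell after GO, at −0.78 ± 0.17 (log2 fold change ± SE) (adjusted p = 0.0017), from 48.0 ± 2.59 to 27.8 ± 6.75 CPM.

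In the main fit none of the 4 genes of anaphase passed as lower in a comparison with untreated cells. CDC20 and PTTG1 did so under other settings given below. ESPL1 (ENSG00000135476, chr12:53662083-53687422 in GRCh37) encodes separase, the protease that cuts cohesin. ESPL1 measured 74.2, 78.1 and 74.9 CPM in the untreated libraries, 108.1, 116.3 and 115.5 CPM with GO, 91.99, 72.1 and 82.1 CPM with GO–Rg3 and 113.2, 109.4 and 110.1 CPM with GO–Rg3–DOX. The GO and GO–Rg3–DOX libraries were above all untreated ones, and the untreated and GO–Rg3 libraries overlapped. ESPL1 rose after GO with a log2 fold change of 0.58 ± 0.09 (SE) (adjusted p = 0.00025) and after GO–Rg3–DOX with one of 0.55 ± 0.09 (SE) (adjusted p = 0.00011), the latter at 0.13 and not past the test with library totals alone. It was lower after GO–Rg3 than after GO at −0.46 ± 0.09 (log2 fold change ± SE) (adjusted p = 0.0027), which did not pass without GO replicate 3 or GO–Rg3 replicate 3, at −0.45 and −0.47, or with the GC offset, at −0.25 (adjusted p = 0.019). CDC20, which activates the anaphase-promoting complex, UBE2C, its ubiquitin-conjugating enzyme, and PTTG1, which encodes securin, had log2 fold changes between −0.15 and 0.26 after GO–Rg3–DOX and did not pass in any comparison. With the GC offset CDC20 passed as lower after GO, at −0.33 (adjusted p = 0.0016), and after GO–Rg3–DOX, at −0.40 (adjusted p = 1e-04), and PTTG1 as higher after GO–Rg3–DOX, at 0.50 (adjusted p = 0.007). With library totals alone CDC20 was lower after GO–Rg3–DOX, at −0.57. Without a filter on low counts PTTG1 passed as lower after GO–Rg3. It also passed as lower after GO and after GO–Rg3 when both libraries of highest mitochondrial share were left out. UBE2C varied widely after GO (166 ± 49.8 CPM) and GO–Rg3–DOX (155.6 ± 49.95 CPM) against 138 ± 0.90 in untreated cells.

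Of the 5 cytokinesis genes, 4 fell after GO–Rg3–DOX. KIF23 (ENSG00000137807, chr15:69706585-69740766 in GRCh37) encodes MKLP1, the motor of the centralspindlin complex. KIF23 measured 123.8, 123.97 and 125.4 CPM in the untreated libraries, 86.1, 105.4 and 100.1 CPM with GO, 110.3, 132.5 and 120.1 CPM with GO–Rg3 and 33.001, 36.8 and 38.3 CPM with GO–Rg3–DOX. The GO–Rg3–DOX libraries were below all others and the log2 fold change was −1.79 ± 0.11 (SE) (adjusted p = 1.9e-09), while the GO libraries were below the untreated ones with an adjusted p of 0.011. KIF20A, which carries the passenger complex to the midzone, gave −0.79 ± 0.11 (log2 fold change ± SE) (adjusted p = 1e-05). ECT2, which activates RhoA at the cleavage furrow, gave −0.81 ± 0.18 (log2 fold change ± SE) (adjusted p = 0.00088), which did not pass with the GC offset, at −0.15. ECT2 also fell after GO, from 201 ± 6.74 to 123 ± 36.8 CPM, at −0.71 ± 0.18 (log2 fold change ± SE) (adjusted p = 0.0051), and was higher after GO–Rg3 than after GO at 0.72 ± 0.18 (SE) (adjusted p = 0.0081). The fall did not pass without untreated replicate 1, 2 or 3 or GO replicate 3 (−0.76 to −0.68) or with the GC offset (−0.35), and the difference between the carriers did not pass without GO replicate 1 or 3 or GO–Rg3 replicate 2 or 3 (0.50 to 0.78). ANLN, the scaffold of the contractile ring, gave −0.57 ± 0.16 (log2 fold change ± SE) after GO–Rg3–DOX (adjusted p = 0.0044), which did not pass when any 1 of the 6 libraries was left out, at −0.59 to −0.55, or with the GC offset, at −0.06 (adjusted p = 0.65). PRC1, the bundler of midzone microtubules, measured 168 ± 1.92 and 192 ± 4.65 CPM (adjusted p = 0.072), passed as higher with DESeq2, at 0.26, and with the GC offset, at 0.38, and 34.3% of its exonic bases are shared with the antisense gene PRC1-AS1.

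FOXM1 (ENSG00000111206, chr12:2966846-2986340 in GRCh37) encodes the transcription factor that drives many genes of this list in G2. FOXM1 measured 190.3, 192.4 and 191.3 CPM in the untreated libraries, 207.4, 185.9 and 197.4 CPM with GO, 227.7, 190.4 and 205.5 CPM with GO–Rg3 and 426.3, 303.3 and 317.9 CPM with GO–Rg3–DOX. It rose after GO–Rg3–DOX with a log2 fold change of 0.87 ± 0.12 (SE) (adjusted p = 1.3e-05), with all 3 libraries above every other and replicate 1 the highest, and 15.9% of its exonic bases are shared with ITFG2 on the opposite strand. TOP2A measured 384 ± 14.1 CPM in untreated and 334 ± 15.8 CPM in GO–Rg3–DOX cells (adjusted p = 0.30), and 272 ± 83.7 CPM after GO, where replicate 1 was at 180 CPM (adjusted p = 0.029). MKI67, the proliferation marker that coats mitotic chromosomes, rose after GO from 366 ± 35.5 to 553 ± 36.4 CPM, by 0.59 ± 0.12 (log2 fold change ± SE) (adjusted p = 0.0017), which did not pass without untreated replicate 1, at 0.53. Under GO–Rg3–DOX it was 329 ± 54.1 CPM (adjusted p = 0.28).

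Groups without overlap were common in the whole table. After GO–Rg3–DOX the 3 treated and 3 untreated libraries did not overlap for 37 of the 44 genes, beside 75.3% of all tested genes. The counts were 36 after GO, beside 58.5%, 18 after GO–Rg3, beside 25.8%, and 21 for GO–Rg3 against GO, beside 39% of all genes.

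Properties that the choice of genes did not use moved with the differences. Transcripts of the 44 genes had a median GC content of 45.2%, beside 48.4% for the tested genes with a value. Across the 44 genes the log2 fold change after GO had a Spearman correlation of 0.73 with GC content, and after GO–Rg3–DOX one of 0.43, while across 16310 tested genes the values were 0.45 and 0.38. These are descriptions across genes that share the same libraries. Of the 10 genes that fell after GO, 8 were among the 22 members of lower GC content, and the 3 that rose were among the 22 of higher GC content. After GO–Rg3–DOX, 19 of the 28 that fell were in the lower set, and all 5 that rose in the higher set. For GO–Rg3 against GO the correlation was −0.74 over the members and −0.45 over all genes. For GO–Rg3 against untreated cells it was 0.41 over the members and 0.21 over all genes. With transcript length the correlation there was 0.62 over the members and 0.27 over all genes. CKS2, PTTG1 and CKS1B, at −0.83, −0.46 and −0.47 after GO–Rg3, have short transcripts of 616, 715 and 779 bases. UBE2C, with 777 bases, was at −0.15. The part of GC content and of length in the differences between the samples was not tested beyond the offsets.

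**Figure D5:**
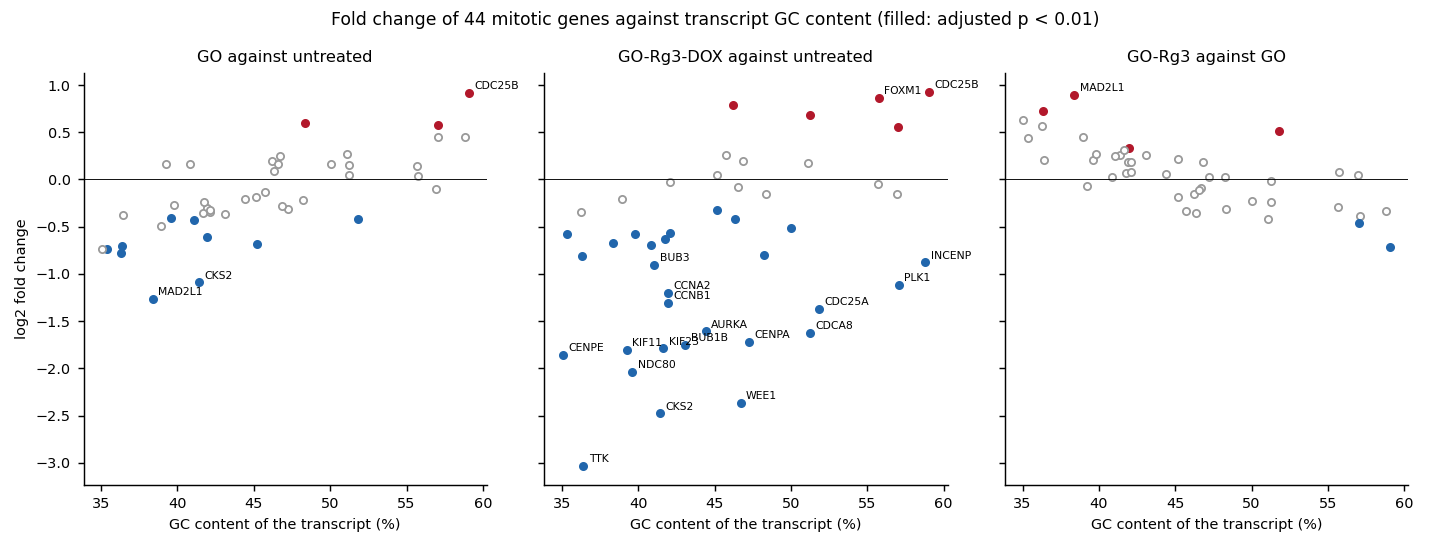
Log2 fold change of each of the 44 genes against the GC content of its transcript in percent, for 3 comparisons. Filled points passed the test (blue lower, red higher). After GO, MAD2L1 at −1.27 has 38.4% GC and CDC25B at 0.92 has 59.1%, while after GO–Rg3–DOX WEE1, CDCA8 and CDC25A lie low at 46.7%, 51.2% and 51.8% GC.

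Other genes of the same machinery, 122 tested genes in 6 lists of complexes that hold none of the 44, were examined in the same fit. After GO–Rg3–DOX 69 fell (56.6%, beside 30.5% of all tested genes) and 17 rose (13.9%, beside 25.5%), with a median log2 fold change of −0.55. Of 32 other kinetochore genes 20 fell and 3 rose, of 29 other spindle and cytokinesis genes 21 fell and 2 rose, and of 18 condensin and cohesin genes 12 fell and 3 rose. Of 12 genes of the DREAM and MuvB complexes 7 fell and 1 rose, and of 16 anaphase-promoting complex genes 5 fell (31.2%, near the background) and 3 rose (18.8%), with a median of −0.03. The smallest adjusted p-values belonged to HJURP, which loads CENPA onto centromeres and gave −2.20 ± 0.11 (log2 fold change ± SE), to KIF18A, a kinesin that damps chromosome movement, at −2.64 ± 0.15, and to WAPAL, which releases cohesin, at −2.03 ± 0.13.

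Of the G1 cyclins, G1 kinases and CDK inhibitors, 15 tested genes, 5 rose (33.3%) and 4 fell (26.7%) after GO–Rg3–DOX, beside 25.5% and 30.5% of all genes. After GO 41 of the 122 genes fell (33.6%, beside 15.4%) and 6 rose (4.92%, beside 12.1%), with a median of −0.31, led by OIP5, a partner of CENPA loading, at −1.298 ± 0.13, E2F5, a repressor in DREAM, at −1.299 ± 0.15, and NSL1 of the MIS12 complex at −0.95 ± 0.12. After GO–Rg3 none of the 122 passed edgeR's test, and the smallest adjusted p, 0.018, was that of CDKN1A, the CDK inhibitor p21, at −0.58 ± 0.10. An unadjusted p below 0.05 was found for 19 of them, and the share over all genes was not counted. GO–Rg3 against GO gave 21 higher (17.2%, beside 7.33%) and 5 lower (4.10%, beside 6.25%), with CDKN2C, an inhibitor of CDK4 and CDK6, lower at −1.11 ± 0.12, E2F5 higher at 1.13 ± 0.15 and CDKN1A lower at −0.63 ± 0.10.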

How the data were processed

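RNA of 12 Huh7 samples was sequenced from TruSeq stranded mRNA libraries. The authors deposited raw counts per Ensembl gene, which featureCounts made within the NGI-RNAseq pipeline from alignments to GRCh37. The annotation release and the strand setting are not given in the sources used here, and neither are the versions of those tools. The 44 genes and all other lists were chosen with earlier results of these data known.

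Genes with at least 10 counts in 3 or more samples were kept. The counts were fitted with edgeR 4.0.16 in R 4.3.3 (TMM scaling, quasi-likelihood test, 12 samples in 1 model, no covariate), and p-values were adjusted over the 17092 genes tested. A gene passed at an adjusted p below 0.01 and was called where the absolute log2 fold change was also above 1. The fit was tested on simulated data. Values in every sample are given for members called in a comparison and for the member of each role with the smallest adjusted p. Of the other lists at most 3 genes per comparison, those with the smallest adjusted p, are named. Transcript length, GC content and positions came from a GENCODE annotation lifted to GRCh37, with a GC value for 95.4% of the tested genes. Promoter windows came from RefSeq (GRCh38.p14). DESeq2 1.42.0 served as an alternative. Tables and plots were made with pandas 2.3.3 and matplotlib 3.10.9. Samples were grouped by the treatment in their labels, and no pair of replicates agreed within sampling noise.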

Additional observations from a re-analysis of the deposited data

How the results depend on the processing

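The fall of the mitotic genes after GO–Rg3–DOX kept its direction under all alternatives run: the median log2 fold change of the members stayed below 0, at −0.53 with RLE scaling, −0.53 with DESeq2, −0.68 without a filter, −1.01 with library totals alone (2 genes higher), −0.44 with a gene length offset (−0.44 with the replicate block added) and −0.22 with a GC offset (−0.22 with the block), where 9 and 9 genes were higher. Of all genes 12.6% were higher with library totals alone, 30.8% with the GC offset and 31.4% with the block added. Of the 33 genes that passed, CDK1 was the one whose sign turned, to 0.13 with the GC offset and 0.13 with the block added, and TPX2, NUSAP1, HMMR and TOP2A, which had not passed, also turned to above 0 with that offset. Left out 1 at a time, libraries gave medians from −0.67 to −0.57. Of these 33 genes, 29 passed with every library left out and 21 under every alternative.

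For GO the median was −0.34 with library totals alone, −0.083 with the GC offset and −0.084 with the block added. The genes higher numbered 5 without a filter, 5 in a fit to the 6 samples compared, 6 with the GC offset, 7 with the block added, 5 with gene length and block and 5 at an adjusted p below 0.05. Of all genes 6.86%, 13.6%, 13.6%, 14.8%, 16.6% and 20.1% were higher, in that order. Members lower numbered 17 with the replicate block (38.6%, beside 18.7% of all genes), 19 with gene length and block (43.2%, beside 20.9%) and 19 at 0.05 (43.2%, beside 22.5%). Leaving out 1 library gave 7 to 16 lower (15.9% to 36.4%, beside 10.5% to 15.7% of all genes). Medians then lay from −0.30 to −0.19, and 9 of 13 genes passed under every alternative. For GO–Rg3 1 gene was lower with DESeq2, 3 without a filter, 1 with each of the GC and the length offset with block, and 1 at 0.05. Of all genes 1.34%, 1.18%, 1.01%, 0.527% and 1.25% were lower, in that order. The median was −0.044 with the 6 samples, −0.053 with the GC offset and −0.053 with the block.

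GO–Rg3 against GO rested most on the settings, and none of its 6 genes passed under every alternative. Those higher numbered 7 without a filter (15.9%, beside 5.03% of all genes) and 7 with DESeq2 (15.9%, beside 11.2%). They numbered 9 with gene length and block (20.5%, beside 13.8%) and 8 at 0.05 (18.2%, beside 14.4%). Those lower numbered 1 with library totals alone (2.27%, beside 2.86%, median 0.21) and 6 at 0.05 (13.6%, beside 13%), shares near the background. With the 6 samples alone 0 were higher and 0 lower, beside 0.954% and 1.87% of all genes. Leaving out 1 library gave 1 to 6 higher (1 without GO replicate 3, without GO–Rg3 replicate 2 or without GO–Rg3 replicate 3, and 2 without GO replicate 1) and 1 to 3 lower. Of all genes 2.93% to 9.01% were then higher and 3.12% to 7.8% lower. The cause of these shifts was not tested.

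Replicate numbers recur in every group, and the labels do not say whether they pair the samples. Deviations of same-numbered samples correlated at −0.02 to 0.25, above 0.1 in 7 of 18 pairs. Their mean was 0.09, beside −0.045 for samples of different groups and numbers, so pairing was neither shown nor excluded. The replicate block changed the counts given above and left the remaining ones within 1.5 times. With it PLK1 passed as higher after GO, at 0.44 (adjusted p = 0.0017). Leaving out both libraries of highest mitochondrial share, or the mitochondrial genes, was added after seeing the data. Each left 28 members lower after GO–Rg3–DOX (63.6%), beside 30.8% and 30.9% of all genes. Without those libraries 3 members were lower after GO–Rg3 (6.82%, beside 2.93% of all genes).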
